A study of Homo sapiens with 24 samples.

Results

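ERK pathway feedback inhibitors are genes whose products damp signalling from growth factor receptors through RAS, RAF, MEK and ERK. The 10 examined here were the phosphatase genes DUSP1, DUSP4, DUSP5, DUSP6 and DUSP8, the Sprouty genes SPRY1, SPRY2 and SPRY4, and the Sprouty-related genes SPRED1 and SPRED2. They were taken by symbol from tables of 4 human neuroblastoma cell lines, and all 10 were listed and tested in each table. The tables together list 39772 genes. The lines were sequenced after 72 hours with 1 µM GSK-J4 or untreated, with 3 libraries in each of 8 groups and 24 in all. GSK-J4 is a cell-permeable inhibitor of the KDM6 histone H3 lysine 27 demethylases. LAN5 and IMR5 are labelled MYCN amplified and sensitive to the compound, SK-N-FI is labelled MYCN wildtype and sensitive, and SK-N-BE(2) is labelled MYCN amplified and resistant. No vehicle is named for the untreated cells, and resistance is represented by 1 line, so every contrast with SK-N-BE(2) compares lines and not classes of line.

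When ERK is activated, it enters the nucleus and induces transcription factors and, with them, genes that switch the pathway off again. The dual-specificity phosphatases remove phosphate from MAP kinases directly. Sprouty and SPRED proteins act further up, between the receptor and RAF, and SPRED proteins bring the RAS inactivator neurofibromin to the membrane. In neuroblastoma, receptors such as ALK feed into this cascade. DUSP6 and SPRY4 transcripts are widely used as readouts of ERK output, whereas DUSP8 acts chiefly on JNK and p38, so the name of the group holds less well for it.

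With GSK-J4, 8 of the 10 genes rose in LAN5 cells, 9 in IMR5 cells and 6 in SK-N-FI, and none fell in these lines, by the adjusted p of the authors' deposited tables (DESeq2 with Benjamini-Hochberg adjustment, threshold 0.05). At an unadjusted p under 0.05, the higher genes numbered 8, 9 and 7, and the lower genes 0, in LAN5 cells, IMR5 and SK-N-FI. Among all genes tested, 22.5% were called higher and 19.2% lower in LAN5 cells, 22.6% and 21.6% in IMR5 cells, and 16.8% and 14.8% in SK-N-FI. Restricted to genes whose mean reached 50, as all 10 did, 28.5% were called higher and 36.5% lower in LAN5 cells, 33.7% and 34.2% in IMR5 cells, and 24.1% and 23.6% in SK-N-FI. In SK-N-BE(2) 0 of the 10 were called in either direction, 0 had an unadjusted p under 0.05, and the smallest unadjusted p was 0.119. Only 1.62% of all genes tested were called higher in that line and 0.858% lower, or 1.75% and 0.932% of those whose mean reached 50, so a count of 0 among 10 genes lies near the background.

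DUSP1, DUSP5, DUSP6, SPRY2 and SPRED1 were called higher in each of the 3 sensitive lines. That is 5 of 10, where 5.01% of the 18599 genes tested in all of them were called higher in each and 5.83% lower in each. Every one of the 10 was called higher in at least 1 sensitive line, as were 43.4% of those 18599 genes. The median log2 fold change of the 10 in the authors' deposited tables was 0.55 in LAN5 cells, 1.67 in IMR5 cells, 0.51 in SK-N-FI cells and 0.03 in SK-N-BE(2). Over all genes tested the corresponding medians were 0.09, 0.02, 0.01 and -0.00017. The median was largest in IMR5. The deposited fold changes carry the marks of shrinkage toward 0 by a prior, strongest in SK-N-BE(2), where a value near 0 is in part a product of that step. Values called prior-removed below have the shrinkage undone, and lines are compared on them.

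**Figure D1:**
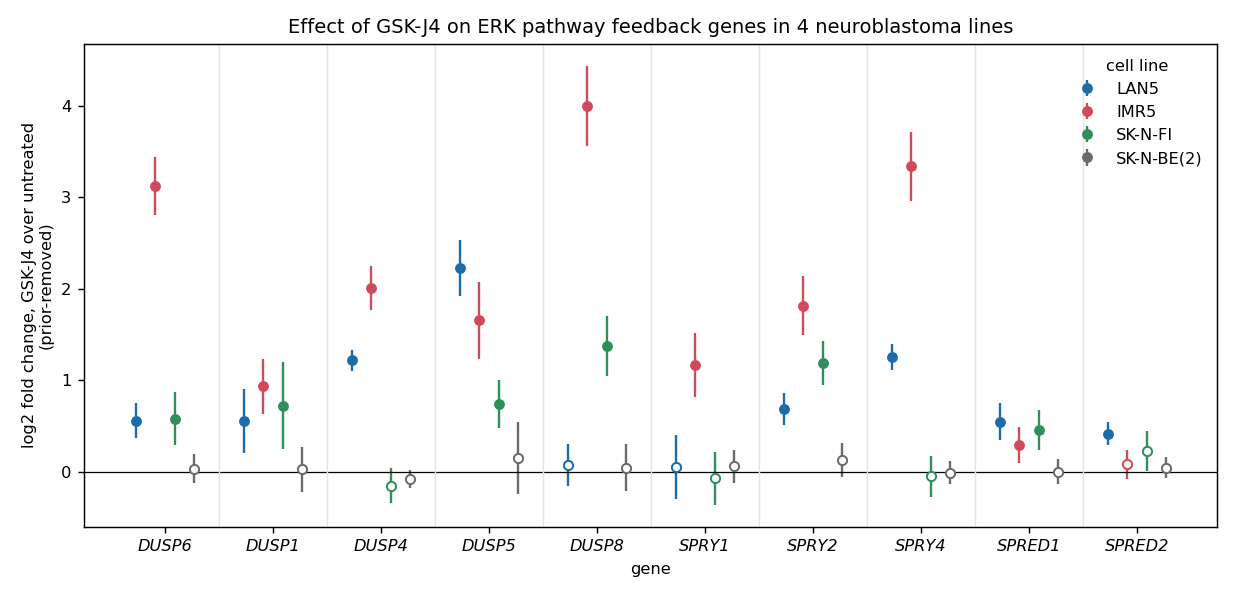
Log2 fold change of GSK-J4 over untreated (y axis) for the 10 genes (x axis) in the 4 lines, after removal of the shrinkage prior. Points are estimates, bars are 95% intervals, and open points mark genes with an adjusted p of 0.05 or more in the authors' deposited tables. The IMR5 values reach 3.997 for DUSP8, and all SK-N-BE(2) points are open and lie between -0.079 and 0.15.

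The labelled cell type was checked against fixed markers. Of 8 sympathoadrenal markers, 7 or 8 were listed in each table, and their means summed to 1103 to 1951 parts in 1000000 of the table's total (ppm); TH was not listed in IMR5 or SK-N-FI. These markers were called lower with GSK-J4 in 8 of 8 tested genes in LAN5 cells, 4 of 7 in IMR5 cells, 5 of 7 in SK-N-FI cells and 5 of 8 in SK-N-BE(2). Called higher were 0, 2, 1 and 0 of them in the same order, namely PHOX2A and GATA3 in IMR5 and GATA3 in SK-N-FI. Among all genes tested, 19.2%, 21.6%, 14.8% and 0.858% were called lower in that order of lines. The shares called higher were 22.5%, 22.6%, 16.8% and 1.62%. The 7 Schwann and glial markers summed to 3.11 to 13.2 ppm, with SOX10 listed in no table, and the 7 immune and endothelial markers to 1.19 to 9.87 ppm. The 7 fibroblast markers summed to 150 ppm in LAN5 cells, 87.5 in IMR5 cells, 275 in SK-N-FI cells and 2231 in SK-N-BE(2), where LUM and DCN had means of 19924 and 11860 in the authors' deposited table. The part of these marker differences in the results below was not tested. In bulk RNA, fewer cells of one kind and less RNA per cell cannot be told apart.

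The nuclear, inducible phosphatases DUSP1, DUSP4 and DUSP5 are described first, of which DUSP1 and DUSP5 were called higher in all 3 sensitive lines. The files give no value for single libraries, so levels below are group means of normalized counts, estimated from the authors' mean over a line's libraries and the prior-removed fold change, with no error of their own. DUSP1, which acts on ERK, JNK and p38 in the nucleus and lies at chr5:172768090-172771195 (GRCh38, minus strand, ENSG00000120129), rose in all 3 sensitive lines. Its estimated mean was 155 with GSK-J4 against 106 untreated in LAN5 cells, 275 against 144 in IMR5 cells, 92.9 against 56.4 in SK-N-FI cells and 274 against 269 in SK-N-BE(2). Its log2 fold change in the authors' deposited tables was 0.54 ± 0.173 (standard error) in LAN5 cells, 0.91 ± 0.150 in IMR5 cells, 0.67 ± 0.224 in SK-N-FI cells and 0.02 ± 0.0796 in SK-N-BE(2). The adjusted p was 0.00595, 7.60e-09, 0.0119 and 0.977 in the same order of lines.

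DUSP4, a nuclear phosphatase of ERK and JNK encoded on chromosome 8 (ENSG00000120875), rose in the MYCN-amplified sensitive lines alone. The estimated DUSP4 mean was 4520 with GSK-J4 against 1944 untreated in LAN5 cells, 1586 against 394 in IMR5 cells, 13148 against 14636 in SK-N-FI cells and 2540 against 2683 in SK-N-BE(2). The log2 fold change in the authors' deposited tables was 1.21 ± 0.0599 in LAN5 (adjusted p = 3.16e-89) and 1.98 ± 0.119 in IMR5 (adjusted p = 6.30e-60). It was -0.15 ± 0.0966 in SK-N-FI (adjusted p = 0.238) and -0.07 ± 0.0462 in SK-N-BE(2) (adjusted p = 0.685). SK-N-FI, where DUSP4 was not called, had by far the highest level of the 4 lines.

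DUSP5, a nuclear phosphatase selective for ERK at chr10:110497838-110511544 (GRCh38, plus strand, ENSG00000138166), was the member with the largest shift in LAN5. The estimated DUSP5 mean was 349 with GSK-J4 against 74.6 untreated in LAN5 cells, 180 against 57.1 in IMR5 cells, 1650 against 985 in SK-N-FI cells and 95.9 against 86.5 in SK-N-BE(2). DUSP5 had, in the authors' deposited tables, a log2 fold change of 2.18 ± 0.153 in LAN5 (adjusted p = 2.67e-44), 1.58 ± 0.203 in IMR5 (adjusted p = 8.33e-14) and 0.73 ± 0.131 in SK-N-FI (adjusted p = 3.47e-07). In SK-N-BE(2) it was 0.06 ± 0.0814 (adjusted p = 0.919). A processed pseudogene, DUSP5P1, could share reads with DUSP5. In the authors' deposited tables its mean was 10.2 in LAN5 cells, 64.0 in IMR5 cells, 0.348 in SK-N-FI cells and 68.8 in SK-N-BE(2), so in IMR5 cells and SK-N-BE(2) it was of the same order as DUSP5 itself. DUSP5P1 was called higher in LAN5 (log2 2.55, adjusted p = 2.97e-06) and lower in IMR5 (log2 -1.18, adjusted p = 5.44e-06) in the authors' deposited tables, and the DUSP5 values are uncertain to that extent.

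DUSP6, the cytoplasmic phosphatase selective for ERK at chr12:89347232-89353271 (GRCh38, minus strand, ENSG00000139318), rose in all 3 sensitive lines, by far the most in IMR5. The estimated DUSP6 mean was 775 with GSK-J4 against 526 untreated in LAN5 cells, 758 against 86.8 in IMR5 cells, 1027 against 687 in SK-N-FI cells and 630 against 617 in SK-N-BE(2). The log2 fold change in the authors' deposited tables was 0.55 ± 0.0981 in LAN5 (adjusted p = 9.19e-08), 3.04 ± 0.157 in IMR5 (adjusted p = 4.90e-81) and 0.56 ± 0.142 in SK-N-FI (adjusted p = 0.000449). In SK-N-BE(2) it was 0.03 ± 0.0658 (adjusted p = 0.958). Untreated IMR5 stood apart with a level far under those of the other lines, whereas the GSK-J4 levels of the 4 lines lay close together.

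DUSP8, the JNK and p38 phosphatase at chr11:1554044-1571920 (GRCh38, minus strand, ENSG00000184545), gave the largest shift of any of the 10, in IMR5, and was not called in LAN5. The estimated DUSP8 mean was 443 with GSK-J4 against 27.7 untreated in IMR5 cells and 225 against 86.7 in SK-N-FI. It was 479 against 456 in LAN5 and 234 against 227 in SK-N-BE(2). DUSP8 had a log2 fold change in the authors' deposited tables of 3.80 ± 0.212 in IMR5 (adjusted p = 1.22e-69) and 1.32 ± 0.162 in SK-N-FI (adjusted p = 1.39e-14). It was 0.07 ± 0.115 in LAN5 (adjusted p = 0.686) and 0.03 ± 0.0806 in SK-N-BE(2) (adjusted p = 0.965), so DUSP8 was called in IMR5 cells and SK-N-FI and not in LAN5. The pseudogene DUSP8P5, which may share reads with it, had a mean of 51.4 in LAN5 cells, 24.3 in IMR5 cells, 15.4 in SK-N-FI cells and 21.4 in SK-N-BE(2) in the authors' deposited tables. It was called higher in LAN5 (log2 0.62, adjusted p = 0.0370) in the authors' deposited table. Its mean of 24.3 in IMR5 lies close to the estimate of 27.7 for DUSP8 in untreated IMR5, so the fold change of DUSP8 in that line is uncertain to that extent. KRTAP5-AS1 overlaps DUSP8 on the opposite strand, with a mean of at most 13.8 in these tables as deposited by the authors.

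DUSP8 and DUSP1 are also the 2 members whose upstream sequence held the palindromic cyclic AMP response element, written TGACGTCA, which CREB and ATF family factors bind. Their 250 bases before the RefSeq start site (GRCh38.p14) are shown for that reason, 5′ to 3′ on the gene's strand, with the element in capitals. The DUSP8 window is chr11:1572272-1572521 on the minus strand and the DUSP1 window is chr5:172771196-172771445 on the minus strand.
DUSP8: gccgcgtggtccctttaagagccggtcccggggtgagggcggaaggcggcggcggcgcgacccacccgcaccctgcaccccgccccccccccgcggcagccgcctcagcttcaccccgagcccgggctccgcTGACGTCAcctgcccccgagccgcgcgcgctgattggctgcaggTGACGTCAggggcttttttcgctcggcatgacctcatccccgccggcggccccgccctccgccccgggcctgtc
DUSP1: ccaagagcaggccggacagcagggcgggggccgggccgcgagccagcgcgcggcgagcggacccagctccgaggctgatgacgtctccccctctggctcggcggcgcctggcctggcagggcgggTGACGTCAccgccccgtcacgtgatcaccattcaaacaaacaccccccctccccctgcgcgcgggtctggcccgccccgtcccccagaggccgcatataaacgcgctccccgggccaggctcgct
In DUSP8 the elements began 118 and 74 bases before the start site, and in DUSP1 the element began 125 bases before it. RefSeq windows were at hand for 8 of the 10 genes, 12 windows in all, and these 2 held the element, against 1.65% of 35116 windows of all genes. Other motifs were searched on both strands in the same way. The shorter core TGACGT, which the palindrome contains, was found in the same 2 windows and in 7.10% of all windows. The AP-1 site TGANTCA was in none of the 12 and in 6.57% of all. The ETS core CCGGAA was in 1 window each of SPRY1 and SPRY2 and in 14.5% of all, and the ATF4-CHOP composite TGATGNAA was in 1 window of SPRED2 and in 3.14% of all. Such matches describe letters and not bound sites.

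Among the Sprouty genes, whose products hold back RAS and RAF activation after receptor stimulation, SPRY2 alone was called in all 3 sensitive lines. SPRY2 lies at chr13:80335976-80340951 (GRCh38, minus strand, ENSG00000136158). Its estimated mean was 1058 with GSK-J4 against 658 untreated in LAN5 cells, 348 against 99.1 in IMR5 cells, 2514 against 1105 in SK-N-FI cells and 479 against 438 in SK-N-BE(2). The authors' deposited tables gave SPRY2 a log2 fold change of 0.68 ± 0.0904 in LAN5 (adjusted p = 4.65e-13), 1.76 ± 0.159 in IMR5 (adjusted p = 3.30e-27) and 1.16 ± 0.120 in SK-N-FI (adjusted p = 2.10e-20). In SK-N-BE(2) it was 0.10 ± 0.0712 (adjusted p = 0.755).

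SPRY4, at chr5:142310427-142326455 (GRCh38, minus strand, ENSG00000187678), rose in LAN5 and IMR5 and was not called in SK-N-FI. Its estimated mean was 1987 with GSK-J4 against 836 untreated in LAN5 cells, 413 against 40.9 in IMR5 cells, 4617 against 4781 in SK-N-FI cells and 1265 against 1275 in SK-N-BE(2). The authors' deposited tables gave SPRY4 a log2 fold change of 1.24 ± 0.0722 in LAN5 (adjusted p = 1.04e-64) and 3.21 ± 0.185 in IMR5 (adjusted p = 2.30e-65). It was -0.05 ± 0.114 in SK-N-FI (adjusted p = 0.798) and -0.01 ± 0.0562 in SK-N-BE(2) (adjusted p = 0.979). SPRY4 thus shared with DUSP4 a high level without a call in SK-N-FI cells. DUSP5, DUSP6 and SPRY2 also had their highest untreated level in SK-N-FI, and they were called higher there. The lowest untreated level in IMR5 was common to 9 of the 10 genes, DUSP4 and SPRY4 among them. The antisense gene SPRY4-AS1 overlaps SPRY4, with a mean of 3.65 in LAN5 cells, 2.55 in IMR5 cells, 32.5 in SK-N-FI cells and 14.6 in SK-N-BE(2) in the authors' deposited tables. Whether strand was used in counting is not given in the sources used here.

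SPRY1, at chr4:123396795-123403760 (GRCh38, plus strand, ENSG00000164056), was called in IMR5 alone. Its estimated mean was 269 with GSK-J4 against 120 untreated in IMR5 cells, 135 against 131 in LAN5 cells, 284 against 299 in SK-N-FI cells and 664 against 637 in SK-N-BE(2). In the authors' deposited tables the log2 fold change was 1.13 ± 0.171 in IMR5 (adjusted p = 2.57e-10), 0.05 ± 0.173 in LAN5 (adjusted p = 0.870), -0.07 ± 0.144 in SK-N-FI (adjusted p = 0.771) and 0.05 ± 0.0699 in SK-N-BE(2) (adjusted p = 0.928).

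The SPRED genes had log2 fold changes of at most 0.54 in any line. SPRED1, at chr15:38252326-38357249 (GRCh38, plus strand, ENSG00000166068), had an estimated mean of 1083 with GSK-J4 against 741 untreated in LAN5 cells, 722 against 590 in IMR5 cells, 1643 against 1199 in SK-N-FI cells and 1224 against 1223 in SK-N-BE(2). In the authors' deposited tables its log2 fold change was 0.54 ± 0.104 in LAN5 (adjusted p = 9.49e-07), 0.29 ± 0.0980 in IMR5 (adjusted p = 0.00912) and 0.45 ± 0.110 in SK-N-FI (adjusted p = 0.000296). In SK-N-BE(2) it was 0.00048 ± 0.0582 (adjusted p = 0.999). SPRED2, at chr2:65310851-65432637 (GRCh38, minus strand, ENSG00000198369), had an estimated mean of 2896 with GSK-J4 against 2169 untreated in LAN5 cells, 1088 against 1028 in IMR5 cells, 2521 against 2156 in SK-N-FI cells and 1621 against 1573 in SK-N-BE(2). SPRED2 had, by the authors' deposited tables, a log2 fold change of 0.42 ± 0.0634 in LAN5 (adjusted p = 3.96e-10), 0.08 ± 0.0794 in IMR5 (adjusted p = 0.446), 0.22 ± 0.109 in SK-N-FI (adjusted p = 0.108) and 0.04 ± 0.0525 in SK-N-BE(2) (adjusted p = 0.920). It was the only member called in LAN5 and not in IMR5.

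**Figure D2:**
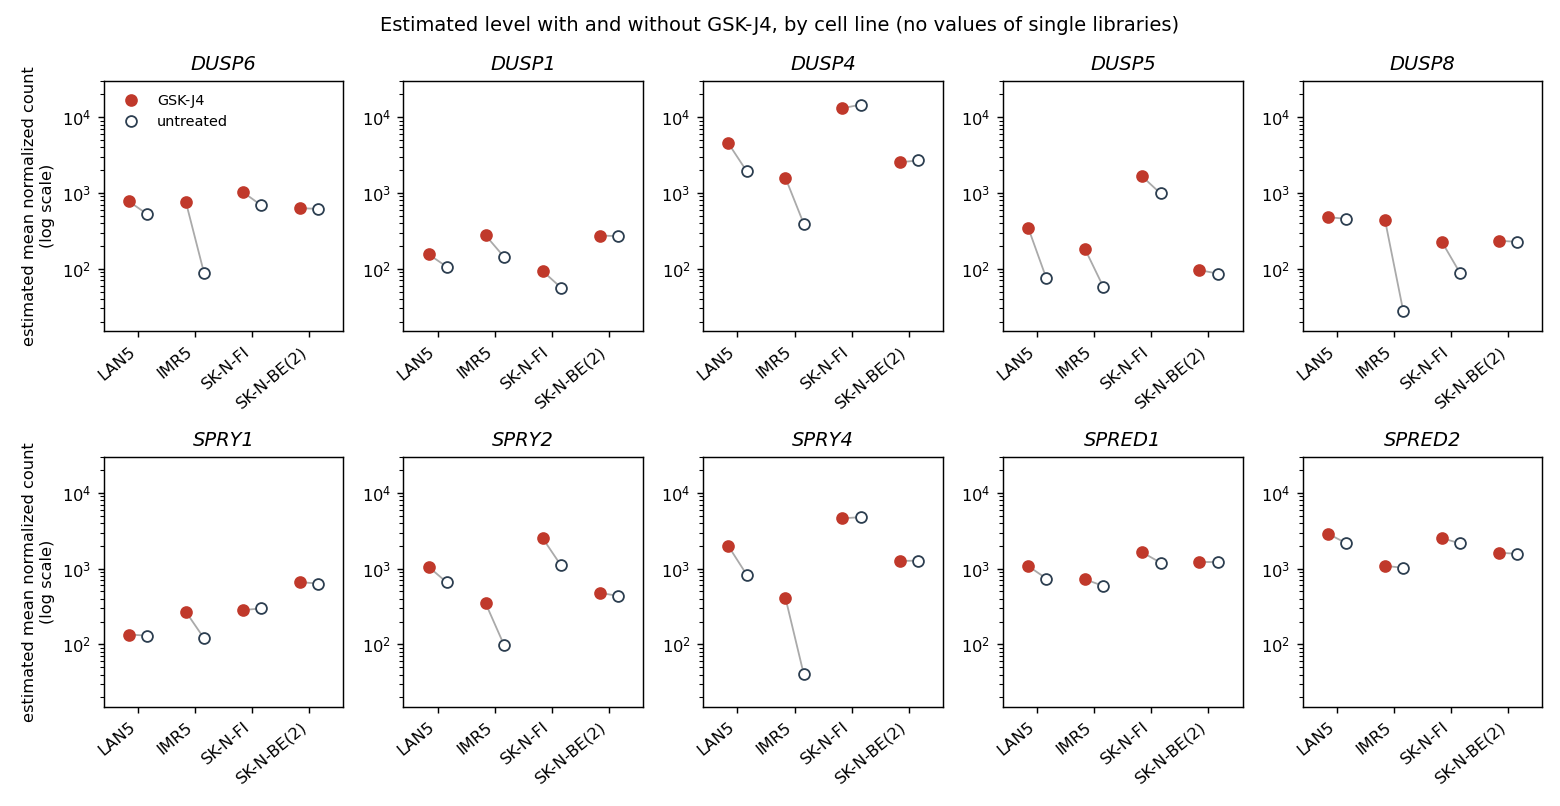
Estimated mean normalized count with GSK-J4 (filled) and untreated (open) on a log axis (y axis) in the 4 lines (x axis), 1 panel a gene. Values are derived group means with no error, since no value of a single library is given. The open IMR5 point is the lowest of the 4 open points for every gene but DUSP1, and the 2 points of SK-N-BE(2) nearly coincide in every panel.

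Levels also differed between lines. Because the tables were normalized separately, each level was given as ppm of the summed means of its table, and this is a description with no test. Untreated IMR5 had the lowest estimated level of the 4 lines for 9 of the 10 genes, DUSP1 being the exception with its lowest level in SK-N-FI. The count was also 9 on normalized counts before scaling to ppm. How many of all genes had their lowest level in untreated IMR5 was not counted, so this is not shown to be particular to these genes. Untreated SK-N-FI had the highest level for DUSP4, DUSP5, DUSP6, SPRY2 and SPRY4. For SPRY4 the untreated level was 297 ppm in SK-N-FI cells and 2.10 ppm in IMR5 cells, a ratio of 141 between highest and lowest line. The same ratio was 44.9 for DUSP4, 20.8 for DUSP5 and 20.7 for DUSP8, and it was 2.51 for SPRED1 and 2.65 for SPRED2. With GSK-J4 the ratio between highest and lowest line was smaller for 8 of the 10 genes. The share of all genes with a smaller ratio was not counted either. It was 1.64 with GSK-J4 against 9.57 untreated for DUSP6, 2.22 against 20.7 for DUSP8 and 13.5 against 141 for SPRY4. For SPRED1 and SPRED2 it was 2.75 and 3.35 with GSK-J4, above the untreated values. The untreated level and the fold change come from the same mean and fold, so the low untreated level and the large fold in IMR5 are not independent measurements.

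The question of whether the sensitive lines responded differently from SK-N-BE(2) was addressed with a Wald test of the difference in prior-removed log2 fold changes, adjusted over the 8982 genes whose mean reached 100 in every table. All 8 members in that test, which leaves out DUSP1 and DUSP5 for their low mean in 1 line, had a larger effect in the mean of LAN5, IMR5 and SK-N-FI. Among the 8982 genes, 26.4% were higher and 32.6% lower in this contrast. DUSP8 had a mean log2 fold change of 1.81 in the sensitive lines and 0.04 in SK-N-BE(2), a difference of 1.77 ± 0.166 (adjusted p = 3.31e-25). For SPRY4 the values were 1.51 and -0.01, a difference of 1.52 ± 0.102 (adjusted p = 1.06e-48). DUSP6 differed by 1.39 ± 0.114 (adjusted p = 1.90e-32), DUSP4 by 1.10 ± 0.0751 (adjusted p = 6.36e-47) and SPRY2 by 1.10 ± 0.120 (adjusted p = 9.89e-19). The differences were smaller for SPRED1 (0.43 ± 0.0912, adjusted p = 8.89e-06), SPRY1 (0.32 ± 0.133, adjusted p = 0.0289) and SPRED2 (0.20 ± 0.0777, adjusted p = 0.0199). With the minimum mean lowered to 20, which took in 11516 genes and all 10 members, DUSP5 differed by 1.39 (adjusted p = 2.83e-09) and DUSP1 by 0.71 (adjusted p = 8.76e-05).

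A mean over 3 lines hides which line carried the difference. With SK-N-FI alone set against SK-N-BE(2), 4 of the 8 members were called higher in place of 8, where 22.6% of the 8982 genes were higher and 21.5% lower. DUSP4, SPRY1 and SPRY4 were slightly below 0, at -0.076, -0.13 and -0.038, and did not pass the Wald test (adjusted p = 0.602, 0.558 and 0.838). With LAN5 alone the difference was 0.03 for DUSP8 (adjusted p = 0.904) and -0.011 for SPRY1 (adjusted p = 0.966). With IMR5 alone it was 0.04 for SPRED2 (adjusted p = 0.744). Without IMR5, the mean of LAN5 and SK-N-FI gave 7 of the 8 members higher, where 24.2% of the 8982 genes were higher and 29.5% lower. SPRY1 was then at -0.072 (adjusted p = 0.699), and several of the larger differences shrank. DUSP8 was at 0.68 in place of 1.77, DUSP6 at 0.54 in place of 1.39, SPRY4 at 0.61 in place of 1.52 and DUSP4 at 0.61 in place of 1.10. Without SK-N-FI, the mean of LAN5 and IMR5 gave 1.69 for DUSP4, 2.30 for SPRY4 and 0.55 for SPRY1. Without LAN5, the mean of IMR5 and SK-N-FI gave 0.49 for SPRY1, and SPRED2 no longer passed at 0.11 (adjusted p = 0.295). The equations that undo the shrinkage have a second, larger-error solution, and with it for SK-N-BE(2) 5 of the 8 members were called, SPRY1, SPRED1 and SPRED2 no longer passing. DUSP4 was then at 1.87 ± 0.546, in place of 1.10 ± 0.0751.

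Among the sensitive lines, the mean of the MYCN-amplified LAN5 and IMR5 was set against SK-N-FI. MYCN wildtype is represented by SK-N-FI alone, so the contrast compares lines and not MYCN classes. In SK-N-BE(2), also labelled MYCN amplified, 0 of the 10 genes were called. Only 1.62% of all genes tested were called higher in that line and 0.858% lower, so this count lies near the background. Of the 8 members 5 were called higher in the amplified pair and 0 lower, where 18.9% of the 8982 genes were higher and 28.4% lower, and at an unadjusted p under 0.05 the lower count was also 0 (Wald test). SPRY4 had a mean log2 fold change of 2.29 in the amplified lines and -0.05 in SK-N-FI, a difference of 2.34 ± 0.155 (adjusted p = 2.75e-49). For DUSP4 the values were 1.61 and -0.15, a difference of 1.77 ± 0.119 (adjusted p = 1.63e-47). DUSP6 differed by 1.26 ± 0.174 (adjusted p = 8.45e-12), SPRY1 by 0.68 ± 0.194 (adjusted p = 0.00163) and DUSP8 by 0.66 ± 0.210 (adjusted p = 0.00510). The differences for SPRY2, SPRED1 and SPRED2 did not pass the test, with 95% intervals from -0.24 to 0.36, from -0.30 to 0.22 and from -0.21 to 0.26.

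The values differed with the amplified line used. With LAN5 alone against SK-N-FI, 2 of the 8 members were called higher and 2 lower, where 20.8% of the 8982 genes were higher and 31.9% lower, so these counts lie near the background. The lower ones were DUSP8 at -1.30 (adjusted p = 2.08e-09) and SPRY2 at -0.50 (adjusted p = 0.00283), and DUSP6 differed by -0.021 (adjusted p = 0.932). With IMR5 alone against SK-N-FI, 6 of the 8 were called higher and 0 lower, where 21.8% of the 8982 genes were higher and 27.1% lower, and 0 were lower at an unadjusted p under 0.05 (Wald test).

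LAN5 was also set against IMR5 directly. The effect in LAN5 was lower for 6 of the 8 members and higher for 1, where 33.7% of the 8982 genes were lower and 27.3% higher. DUSP8 had a log2 fold change of 0.07 in LAN5 and 3.997 in IMR5 cells, a difference of -3.93 ± 0.251 (adjusted p = 6.74e-53). DUSP6 differed by -2.57 ± 0.190 (adjusted p = 5.70e-40), SPRY4 by -2.09 ± 0.205 (adjusted p = 7.46e-23) and SPRY2 by -1.13 ± 0.187 (adjusted p = 9.36e-09). SPRY1 differed by -1.12 ± 0.250 (adjusted p = 2.61e-05) and DUSP4 by -0.79 ± 0.135 (adjusted p = 2.50e-08). SPRED2 was the member higher in LAN5 cells, by 0.34 ± 0.102 (adjusted p = 0.00235). SPRED1 did not pass the test at 0.26 ± 0.144 (adjusted p = 0.110), with a 95% interval from -0.02 to 0.54. With the minimum mean of 20, DUSP5 was at 0.57 (adjusted p = 0.0520) and DUSP1 at -0.38 (adjusted p = 0.154), and neither passed. The contrasts share lines and are not independent of each other.

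**Figure D3:**
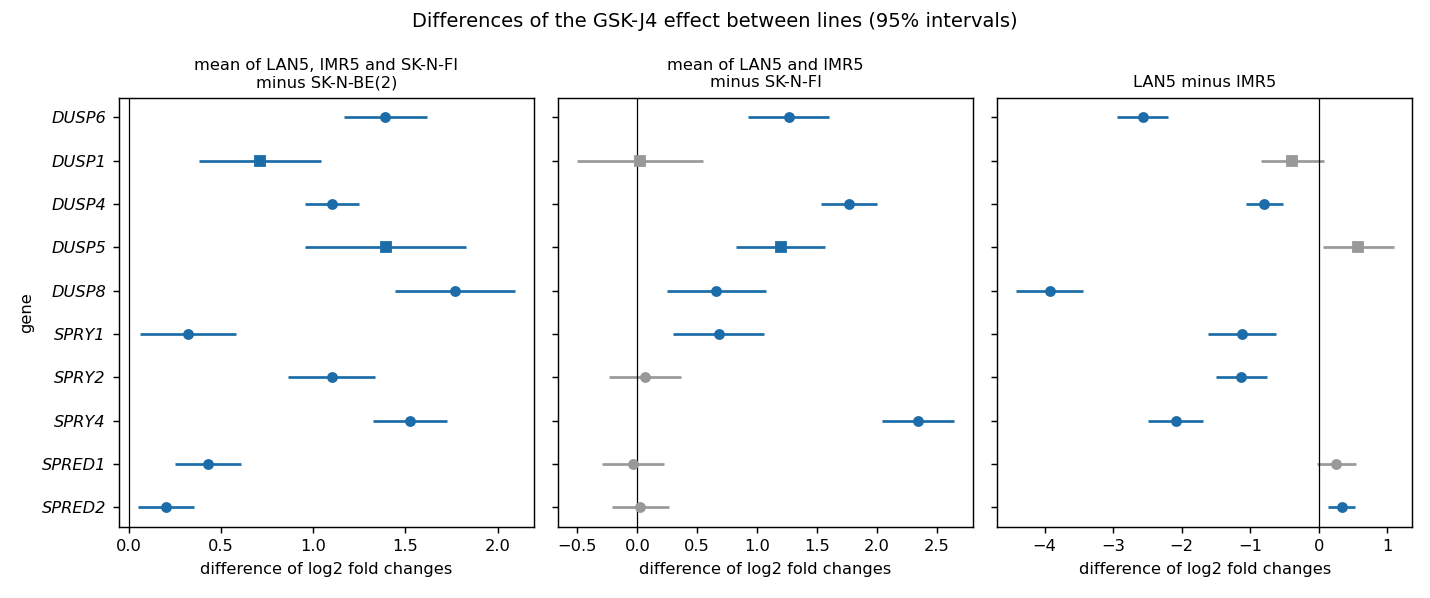
Difference of log2 fold changes (x axis) for the 10 genes (y axis) in 3 contrasts between lines, with 95% intervals. Blue marks an adjusted p under 0.05, grey the rest, and squares the 2 genes tested with a minimum mean of 20. All 10 differences from SK-N-BE(2) are above 0, and DUSP8 at -3.93 lies farthest from 0 in LAN5 minus IMR5.

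The other genes of the pathway were taken as 5 lists. Among all genes tested, 22.5% were called higher and 19.2% lower in LAN5 cells, and 22.6% and 21.6% in IMR5 cells. In SK-N-FI the shares were 16.8% and 14.8%, and in SK-N-BE(2) 1.62% and 0.858%. Of 13 other phosphatases and feedback genes, 7 rose and 3 fell in LAN5 cells, 9 rose and 1 fell in IMR5 cells, 5 of 12 tested rose and 0 fell in SK-N-FI, and 1 of 10 tested rose and 0 fell in SK-N-BE(2), by the authors' deposited tables. DUSP3, DUSP10, DUSP14 and ERRFI1 were called higher in all 3 sensitive lines and not called in SK-N-BE(2). ERRFI1, an inhibitor of the EGF receptor, had log2 fold changes of 1.01 in LAN5 cells, 1.69 in IMR5 cells and 0.91 in SK-N-FI cells in the authors' deposited tables. DUSP10, a JNK and p38 phosphatase, had 0.55, 1.82 and 1.22 in the same tables deposited by the authors, and it was also the gene most like SPRY2, described below. IL17RD, a membrane antagonist of FGF signalling, went the other way in LAN5 cells, at -2.11 ± 0.0640 (adjusted p = 1.63e-235), whereas it was called higher in IMR5 at 0.30 ± 0.104 (adjusted p = 0.0116), in the authors' deposited tables. IL17RD was also the 1 gene of this list called in SK-N-BE(2), at 0.25 ± 0.0761 (adjusted p = 0.0481), and was at 0.04 ± 0.0995 in SK-N-FI (adjusted p = 0.806), in the authors' deposited tables.

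ERK output genes also held more higher than lower calls in the sensitive lines. Their shares were 73.3% higher and 20% lower in LAN5 cells, 78.6% and 14.3% in IMR5 cells, and 42.9% and 28.6% in SK-N-FI. In SK-N-BE(2) both shares were 16.7%. Over all genes tested these were 22.5% and 19.2%, 22.6% and 21.6%, 16.8% and 14.8%, and 1.62% and 0.858%, in that order. By the authors' deposited tables, 11 of 15 tested were higher and 3 lower in LAN5 cells, 11 of 14 higher and 2 lower in IMR5 cells, 6 of 14 higher and 4 lower in SK-N-FI, and 2 of 12 higher and 2 lower in SK-N-BE(2). The median log2 fold change of the list was 2.28 in LAN5 cells, 1.75 in IMR5 cells, 0.29 in SK-N-FI cells and 0.03 in SK-N-BE(2). ETV5, an ETS factor, had log2 fold changes of 1.92 ± 0.0784 in LAN5 cells, 3.37 ± 0.200 in IMR5 cells and 0.62 ± 0.0981 in SK-N-FI cells in the authors' deposited tables, each with an adjusted p of at most 4.78e-09, and 0.03 ± 0.0573 in SK-N-BE(2) (adjusted p = 0.950). The ETS genes ETV4 and ETV1 were called lower in LAN5, at -0.38 and -0.63, and in SK-N-FI, at -0.34 and -0.43, but higher in IMR5, at 1.44 and 0.77, in the authors' deposited tables. ETV1 is named after its values were seen. FOSL1 and FOS, AP-1 subunits, and IER3, an immediate early gene, were also called higher in the 3 sensitive lines and not in SK-N-BE(2). EGR1, a zinc finger immediate early factor, was at 2.81 ± 0.125 in LAN5 and 4.25 ± 0.332 in IMR5 cells, against 0.25 ± 0.121 in SK-N-FI (adjusted p = 0.107) and -0.31 ± 0.0825 in SK-N-BE(2) (adjusted p = 0.0136), in the authors' deposited tables. CCND1, which encodes cyclin D1, was called lower in all 4 lines, at -1.88 in LAN5 cells, -0.45 in IMR5 cells, -0.49 in SK-N-FI cells and -0.24 in SK-N-BE(2) in the authors' deposited tables. EPHA2, an ephrin receptor, was called higher in all 4, at 1.20, 3.64, 1.19 and 0.35 in the same order in the authors' deposited tables. Its mean in SK-N-FI was only 12.9 there, so EPHA2 was also left out of the difference test.

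Calls among the kinases and receptors upstream went in both directions in the sensitive lines. Shares called higher and lower in LAN5, IMR5 and SK-N-FI were 40% and 15%, 30% and 25%, and 30% and 5% for RAS-ERK genes. They were 38.5% and 38.5%, 46.2% and 38.5%, and 15.4% and 15.4% for stress MAP kinases. For receptors they were 37.5% and 31.25%, 14.3% and 64.3%, and 7.69% and 30.8%. For all genes tested they were 22.5% and 19.2%, 22.6% and 21.6%, and 16.8% and 14.8%. Of 20 RAS-ERK cascade genes, 8 were higher and 3 lower in LAN5 cells, 6 and 5 in IMR5 cells, 6 and 1 in SK-N-FI, and 0 and 0 in SK-N-BE(2) by the authors' deposited tables. BRAF, the RAF kinase, was called higher in all 3 sensitive lines, at 0.25 in LAN5 cells, 1.00 in IMR5 cells and 0.74 in SK-N-FI cells in the authors' deposited tables. Of 13 stress MAP kinase genes, 5 were higher and 5 lower in LAN5 cells, 6 and 5 in IMR5 cells, 2 and 2 in SK-N-FI, and 0 and 0 in SK-N-BE(2). MAP2K6, a p38 activator, was called lower in all 3 sensitive lines, at -2.15 in LAN5 cells, -1.79 in IMR5 cells and -1.71 in SK-N-FI cells in the authors' deposited tables, and MAPK8, which encodes JNK1, was called lower in the same lines at -0.51, -0.33 and -0.29. Of the receptor genes 6 of 16 tested were higher and 5 lower in LAN5 cells, 2 of 14 and 9 in IMR5 cells, 1 of 13 and 4 in SK-N-FI, and 1 of 13 and 0 in SK-N-BE(2). RET, the GDNF receptor kinase, was called higher in LAN5 (0.25) and IMR5 (1.13) and lower in SK-N-FI cells (-0.62) in the authors' deposited tables. PDGFRB, the receptor called in SK-N-BE(2) (0.53), was called higher in LAN5 (0.27), lower in IMR5 (-0.36) and not in SK-N-FI (0.16). ALK was called lower in LAN5 (-1.71) and IMR5 (-0.82), higher in SK-N-FI (0.88) and not in SK-N-BE(2) (-0.06). These log2 fold changes are also from the authors' deposited tables. ALK is named after its values were seen.

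**Figure D4:**
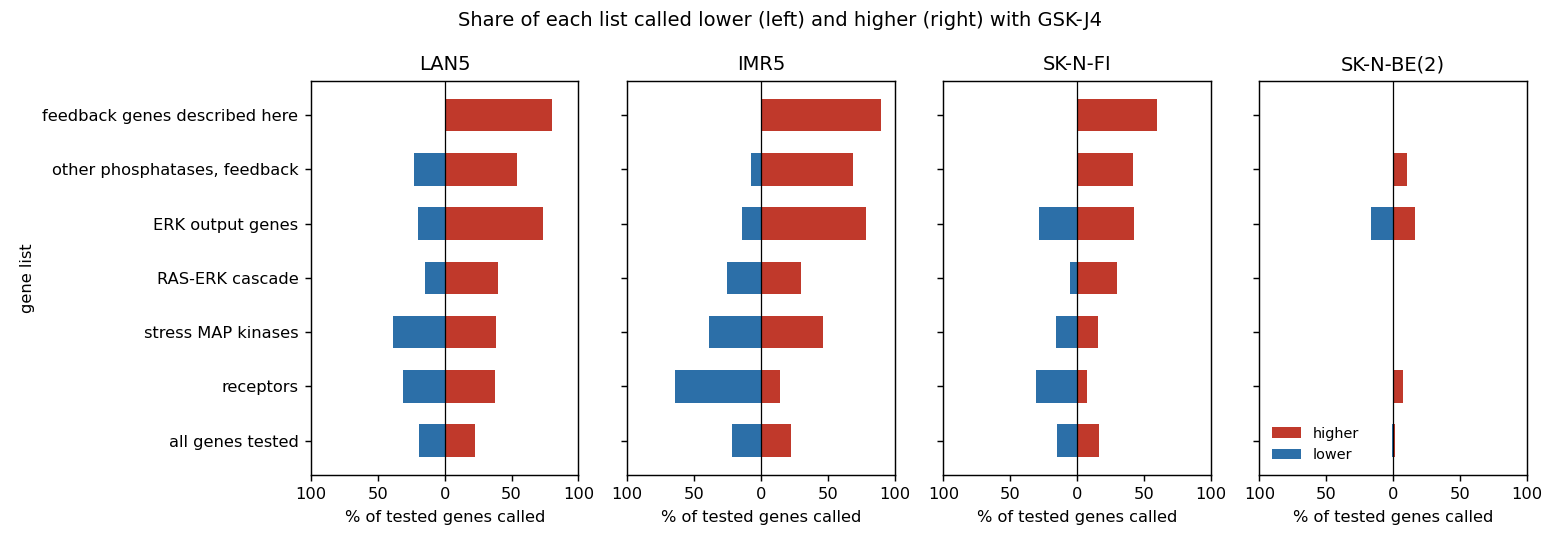
Percent of tested genes called lower (bars to the left) and higher (bars to the right) with GSK-J4 (x axis) for the 10 feedback genes, the 5 other lists and all genes tested (y axis), 1 panel a line. The bar of the 10 genes reaches 80% higher in LAN5 cells, 90% in IMR5 cells and 60% in SK-N-FI, with no bar to the left, and there is none in SK-N-BE(2).

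Likeness was measured as the root mean square difference from a member of the 4 prior-removed log2 fold changes, over the 8982 genes. The gene nearest to SPRY2 was DUSP10 at 0.0764, with log2 values of 0.56 in LAN5 cells, 1.86 in IMR5 cells, 1.26 in SK-N-FI cells and 0.11 in SK-N-BE(2). The gene nearest to DUSP8 was CRABP2 at 0.371, and DUSP6 came next at 0.637. DUSP6 itself was nearest to PTPDC1 at 0.245, DUSP4 to ARID3A at 0.182, SPRY4 to PCK2 at 0.320 and SPRY1 to IAH1 at 0.0621. SPRED1 was nearest to DCTN4 at 0.0430 and SPRED2 to WDR62 at 0.0152. Genes with small fold changes have many near neighbours, so a small distance for the SPRED genes and SPRY1 says less than one for DUSP8 or SPRY2.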

How the data were processed

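Polyadenylated RNA was sequenced from stranded mRNA libraries, per the labels' protocols; FastQC, STAR, DESeq2 and hg38 are named, without versions, per the submitters' processing notes. Counting tool, strand use and design formula were not given in the sources used here. The 4 deposited tables are comparisons made by the authors, 1 a line. The signal is the mean normalized count over the line's libraries, per the file headers; the log2 fold change with its standard error, the Wald score and the p-value, raw and adjusted, are as deposited by the authors. Library depth is unknown, so counting intervals are not given. The labels do not say if replicates were separate cultures; p-values then cover only the spread between libraries, which may be technical.

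Calls used an adjusted p under 0.05. The direction of the fold change is not stated in the sources used here. The sign was read as GSK-J4 over untreated, the reading under which BBC3, MT2A and SLC30A1 rise in the sensitive lines. In SK-N-BE(2) the last 2 of these were used. Every direction given here rests on that reading, which has no independent check in these data. The SK-N-FI table was matched to its line by a similar short name and by elimination, and every SK-N-FI value rests on that match.

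The deposited standard errors stay under a ceiling (LAN5 0.539, IMR5 0.490, SK-N-FI 0.428, SK-N-BE(2) 0.0828), the mark of a normal shrinkage prior. The prior was removed by solving for the unshrunken fold and error, taking the smaller-error solution for genes with means above the peak of a running median error over 501 genes (a mean of 134 for SK-N-BE(2)). Deposited SK-N-BE(2) folds are strongly shrunken, and the score differs from fold over error by more than 0.0001 for 19488 genes, so prior-removed values are less certain there. Group means were estimated from the mean and the prior-removed fold, assuming 3 treated and 3 untreated libraries of equal weight. Differences between lines were tested by a two-sided Wald test with Benjamini-Hochberg adjustment in Python 3.11.15 (scipy 1.17.1). The code was run on simulated data that followed the assumed normal errors and prior. That run cannot show whether these assumptions hold for the deposited values. Count models planned for values per library could not be run on these tables. Gene positions are from GENCODE 29 and promoter windows from RefSeq.

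The members and lists were chosen with earlier results of these data known. Named genes are the 10 members, list genes called in 1 direction in all 3 sensitive lines, at most 3 others a list with the largest sensitive minus SK-N-BE(2) differences, and the nearest genes; a part of these is printed. Alternatives changed the threshold, the genes adjusted together, the prior, the scaling and the lines used.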

Additional observations from a re-analysis of the deposited data

Results flagged for a closer look

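The results listed here are effects of GSK-J4 that differed between lines by the Wald test on prior-removed log2 fold changes, adjusted over 8982 genes. They come from 3 contrasts that share lines, and each contrast compares single lines or their mean. In the mean of LAN5, IMR5 and SK-N-FI minus SK-N-BE(2), all 8 members tested were higher, where 26.4% of the 8982 genes were higher and 32.6% lower. DUSP4 was at 1.10, DUSP6 at 1.39, DUSP8 at 1.77 and the smaller SPRY1 at 0.32. The same contrast gave 1.10 for SPRY2, 1.52 for SPRY4, 0.43 for SPRED1 and 0.20 for SPRED2.

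In the mean of LAN5 and IMR5 minus SK-N-FI, DUSP4 differed by 1.77, DUSP6 by 1.26 and DUSP8 by 0.66. SPRY1 differed by 0.68 and SPRY4 by 2.34 in that contrast. In LAN5 minus IMR5, DUSP4 differed by -0.79, DUSP6 by -2.57 and DUSP8 by -3.93. SPRY1 differed by -1.12, SPRY2 by -1.13 and SPRY4 by -2.09, and SPRED2 by 0.34 in the opposite direction.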

How the results depend on the processing

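No paired analysis was possible because the tables hold comparisons and no values of single libraries, so that leaving out replicates, other normalizations and other filters on counts could not be run either. Counts of members called per line stayed within 1.5 times of those reported under every other threshold, adjustment and minimum size tried, and all 24 differences between lines kept their direction and call with deposited values, with a minimum mean of 20 and with the prior taken from a high percentile of the errors. The lines used mattered more. The 8 members higher in the sensitive lines than in SK-N-BE(2) became 4 with SK-N-FI alone, where DUSP4 was at -0.076, SPRY1 at -0.13 and SPRY4 at -0.038. None of these negative values passed the test. SPRY1 was also below 0 with LAN5 alone (-0.011) and with the mean of LAN5 and SK-N-FI (-0.072), a mean that gave DUSP8 0.68, DUSP6 0.54, SPRY4 0.61 and DUSP4 0.61. In the amplified lines minus SK-N-FI, using LAN5 alone gave 2 members higher in place of 5 and 2 lower in place of 0, with DUSP6 at -0.021, DUSP8 at -1.30 and SPRY2 at -0.50. Centring each line on its median gene gave 2 members higher in LAN5 than in IMR5 in place of 1, SPRED1 joining at 0.31 (adjusted p = 0.0498). Taking the other, larger-error solution of the prior equations for SK-N-BE(2), chosen after seeing the data as were the LAN5 and IMR5 contrasts with SK-N-FI, left 5 of the 8 members higher. SPRED2 then stood at -0.092, SPRY1 at 0.18 (adjusted p = 0.638), SPRED1 at 0.43 (adjusted p = 0.372) and DUSP4 at 1.87 ± 0.546. The causes were not tested. Precision is limited by the unknown depth and, in SK-N-BE(2), by the strong shrinkage.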

Other observations

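Levels per length can be set beside each other within a line. Untreated SK-N-FI had an estimated 125 ppm of summed means per kilobase of exon for DUSP4, 45.3 for SPRY4, 23.4 for DUSP5 and 1.17 for DUSP8. Untreated IMR5 had 2.79 for DUSP4, 0.320 for SPRY4, 1.12 for DUSP5 and 0.309 for DUSP8 on the same scale. In IMR5 the highest of the 10 was SPRED2, at 10.3, which encodes a RAS pathway inhibitor and was not called with GSK-J4 in that line.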
